A study of Homo sapiens with 3 samples.

Results

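The genes described here are 10 long noncoding RNAs (lncRNAs) with a known link to cancer, namely MALAT1, NEAT1, NORAD, DANCR, TUG1, PVT1, HOTAIR, HOTTIP, UCA1 and HULC. They were chosen by name and not by their level, though with earlier results of these data known. Each has 1 row among the 39320 gene rows that the 3 deposited tables share. The study dealt with splice variants of the RNA methyltransferase METTL3 in liver cancer. Polyadenylated RNA was sequenced in 3 libraries, replicates 1 to 3, all labelled as wild-type HepG2, an established liver cancer cell line, with no treatment and no second condition, so levels can be compared between genes and between libraries but not between conditions. The labels do not say whether the libraries came from separate cultures, so the spread between them may be technical. Levels are given in TPM (abundance scaled for gene length and to an equal total in every library), and coverage is the mean read depth over a gene, not scaled for library size. Read counts are not part of the tables, which leaves the depth unknown and gives no counting interval. Relative to replicate 3, the ceiling of the ratio between coverage and FPKM, a measure of relative depth, was 1.16 in replicate 1 and 1.12 in replicate 2.

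The label was checked against 16 genes for proteins that hepatocytes secrete. Of these, 14 did not reach 1 TPM in any library, which was also so for 25119 of all 39320 rows. A group of 9 (ALB, APOA1, APOB, SERPINA1, FGA, FGB, FGG, AHSG and APOC3) were listed at 0 in all 3, as were 16014 of all rows. The rest of the 14 (AFP, TTR, TF, HP and AMBP) had values above 0 in at least 1 library. Their means went from 0.0106 TPM for TF to 0.326 TPM for AMBP, with AFP at 0.0162 TPM. The summed level of the 16 genes ranged from 33.8 to 35.9 TPM, most of which came from VTN (23.3 ± 0.560 TPM, SD, n = 3) and RBP4 (11.0 ± 0.508 TPM). A housekeeping list of 16 genes reached 10 TPM or more throughout, without exception, as did 8137 of all 39320 rows. Most transcripts on this list were thus at 0 or low in these tables, though not VTN and RBP4, and a 0 may also be a failed estimate. The libraries are called "labelled HepG2" for this reason. The part of this in the levels of the lncRNAs was not tested.

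LncRNAs are transcripts longer than a typical small RNA that are not known to be translated into a protein. Some act in the nucleus as scaffolds, such as NEAT1, which builds the paraspeckle, and MALAT1, which gathers at nuclear speckles. Others bind and occupy RNA-binding proteins in the cytoplasm, such as NORAD with the Pumilio proteins, or arise inside clusters of developmental genes and are studied as guides of chromatin modifiers, such as HOTAIR and HOTTIP. Many are read for their link to tumour growth, and HULC was named for its high level in liver cancer.

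The stretches of sequence that the following results refer to were read from GRCh38 at the coordinates of the deposited rows. NORAD is known for repeated copies of the Pumilio response element, a short motif that Pumilio proteins bind. The motif TGTANATA (N is any base) occurs 15 times on the transcribed strand of the 5343 bp NORAD row and 1 time on the other strand. Its copies lie between positions 761 and 4599, counted from 1 at the 5′ end of the row, and 10 read TGTATATA, 4 read TGTAAATA and 1 reads TGTACATA. In 3 places 2 copies stand in tandem, with starts 9 bases apart, and these are shown with 1 single copy for comparison, 5′ to 3′ on the minus strand with the motif in capitals.
NORAD pair, chr20:36049493-36049529: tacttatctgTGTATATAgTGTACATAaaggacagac
NORAD pair, chr20:36048296-36048332: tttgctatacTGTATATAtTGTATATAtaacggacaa
NORAD pair, chr20:36047660-36047696: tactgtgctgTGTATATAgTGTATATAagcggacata
NORAD single copy, chr20:36049703-36049730: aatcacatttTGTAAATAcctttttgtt
The pairs begin at positions 1442, 2639 and 3275 and the single copy at position 1241. Among 1348 other lncRNA transcripts of GENCODE v44 within 25% of the length of NORAD, 40.9% held the motif at least 1 time on the transcribed strand, with a median of 0 copies, and 3 held as many copies as NORAD or more. A match of these letters is a description of the sequence and was not tested for binding.

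MALAT1 and NEAT1 are unusual among lncRNAs because the 3′ end of MALAT1 and that of the long form of NEAT1 are cut by RNase P before a structure like that of a tRNA, so that these RNAs end without a poly(A) tail added in the usual way. The end of MALAT1 is shown because its A bases come from the genome. It holds a run of 13 bases of A in the genome, which ends 6 bases before the small RNA mascRNA that is cut from the same precursor, given in capitals on the plus strand.
MALAT1 3′ end, chr11:65506037-65506174: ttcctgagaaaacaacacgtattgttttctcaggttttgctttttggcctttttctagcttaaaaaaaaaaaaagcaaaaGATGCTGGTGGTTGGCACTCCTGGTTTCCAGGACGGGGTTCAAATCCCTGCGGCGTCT
At NEAT1 the stretch shown crosses the border between a row on the opposite strand, LOC107984338, and the part of NEAT1 that no other listed gene shares there, with the shared bases in capitals on the plus strand.
NEAT1 at the border, chr11:65423321-65423440: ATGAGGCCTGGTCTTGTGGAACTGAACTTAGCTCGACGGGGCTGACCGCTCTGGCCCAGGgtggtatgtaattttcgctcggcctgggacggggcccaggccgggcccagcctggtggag
DANCR is the host of hsa-miR-4449, whose mature sequence in RefSeq (GRCh38.p14, plus strand) is given with the seed, bases 2 to 8, in capitals.
hsa-miR-4449, chr4:52712720-52712741: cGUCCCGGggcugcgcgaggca

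Of the 10 lncRNAs, 5 had at least 1 TPM in every library, namely NORAD, DANCR, TUG1, PVT1 and HOTAIR, and the first 4 had a mean of at least 10 TPM. Among all 39320 rows 33.8% reached 1 TPM in every library, and among the 11678 rows that RefSeq classes as lncRNA 6.26% did. UCA1 and HOTTIP were above 0 and below 1 TPM in every library. MALAT1, NEAT1 and HULC were listed at 0 in TPM, FPKM and coverage in all 3 libraries, as were 40.7% of all rows and 67.3% of the lncRNA rows. A value of 0 in these tables may also be a failed estimate, and in bulk RNA fewer cells with a transcript and less of it per cell cannot be told apart. The summed level of the 10 lncRNAs was 288, 275 and 277 TPM in replicates 1, 2 and 3, to which NORAD gave the largest part in each library.

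**Figure D1:**
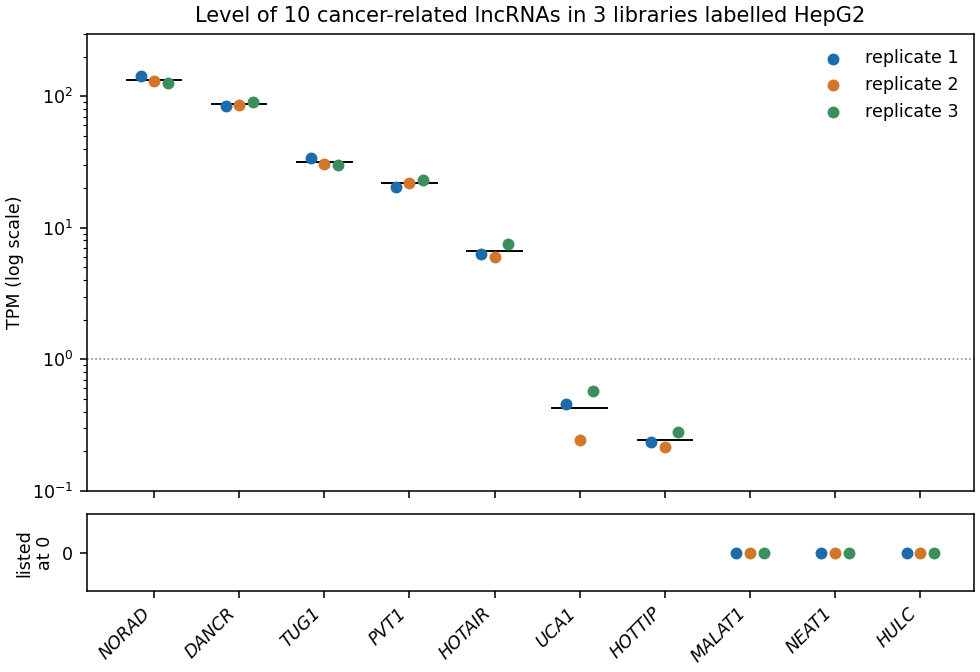
TPM of each of the 10 lncRNAs in the 3 libraries labelled HepG2, on a log scale with a separate strip for values of 0, in which points stand for libraries and short lines for means. NORAD and DANCR stand highest at means of 132 and 86.9 TPM, UCA1 and HOTTIP lie below the dotted line at 1 TPM, and MALAT1, NEAT1 and HULC are listed at 0.

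NORAD, the RNA that sequesters Pumilio proteins and is induced by DNA damage, was the most abundant of the 10. Its row occupies bases 36045618 to 36050960 of chromosome 20 (minus strand). Its level was 142, 130 and 125 TPM in replicates 1, 2 and 3. The mean was 132 ± 8.60 TPM (SD, n = 3). Among the 13753 genes whose mean reached 1 TPM it ranked 1091st, above 92.1% of these genes. The coverage was 890, 795 and 690, highest in the library with the greatest relative depth. The nearest row before it in the genome, CNBD2 at a distance of 14917 bp, had 0.0161, 0.279 and 0.437 TPM, and the nearest row after it, EPB41L1 at 13930 bp, had 65.7, 62.8 and 64.1 TPM, so NORAD was above both in every library. The 5 genes of a list of known NORAD-binding proteins all reached 10 TPM in each library, as did 8137 of all 39320 rows. On this list the median was 97.5 TPM and mean levels ranged from 26.6 to 330 TPM. The list is led by RBMX, a nuclear RNA-binding protein, at 330 ± 9.44 TPM, KHDRBS1, an RNA-binding adaptor, at 172 ± 13.6 TPM, and TOP1, a DNA topoisomerase, at 97.5 ± 4.81 TPM. PUM2, which binds the motif shown above, was lower and is named after its values were seen. It had 27.8, 26.3 and 25.7 TPM, below NORAD in every library.

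DANCR, a lncRNA first described as a block on differentiation, came second by TPM. Its row lies on the plus strand of chromosome 4 from 52712394 to 52720697. It had 84.8, 86.1 and 89.6 TPM in replicates 1, 2 and 3, or 86.9 ± 2.48 TPM (SD, n = 3), the smallest relative spread of the lncRNAs with a value at a coefficient of variation of 2.86%. Its coverage was far lower than this level would give at the ratio of most genes, at 65.8, 65.4 and 60.9. For each gene the ratio of coverage to FPKM was divided by the highest such ratio in the same library, so that 1 means that the 2 values stand in the same proportion as in the gene with the most coverage per FPKM. This relative ratio was 0.124 for DANCR in each library, while it was 1 for PVT1 and between 0.962 and 0.978 for TUG1. A relative ratio as low as that of DANCR or lower, a limit taken after its value was seen, was found in 5.75% of 8419 genes whose mean reached 10 TPM. Taken from the coverage at a relative ratio of 1, the level of DANCR would be 10.5, 10.7 and 11.1 TPM, or 10.7 ± 0.304 TPM, and the deposited mean was 8.09 times as high. Among genes whose mean reached 1 TPM, DANCR stood above 87.3% by TPM and above 54.4% by coverage. What sets the 2 measures apart was not tested.

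**Figure D2:**
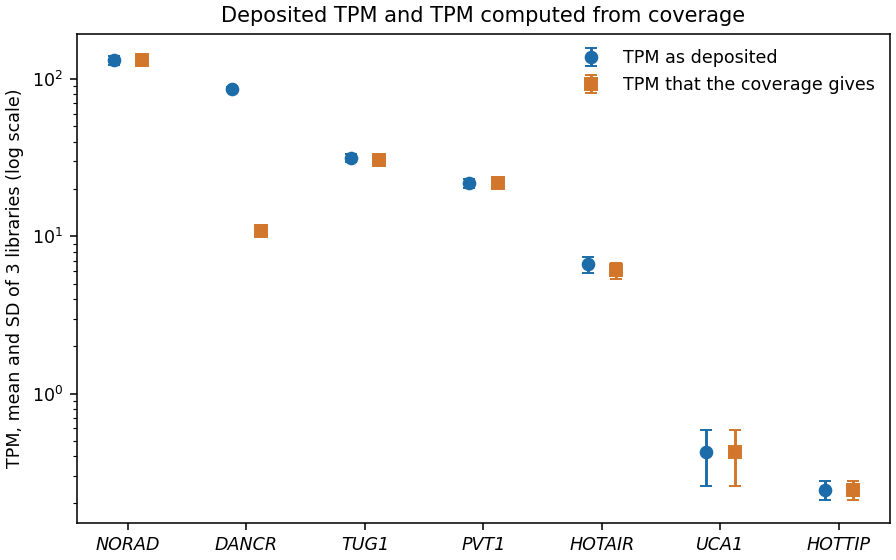
Mean of the deposited TPM (circles) and of the TPM that the coverage gives (squares) on a log scale for the 7 lncRNAs with a value, with error bars for the SD of 3 libraries. DANCR differs most between the 2, at 86.9 and 10.7 TPM, while HOTAIR has 6.63 and 6.07 TPM.

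Within the DANCR row lie the small RNA rows MIR4449 and SNORA26, on the same strand. MIR4449, the precursor of the microRNA shown above, had 1.81, 3.41 and 2.28 TPM. SNORA26, a small nucleolar RNA, had 4.99, 2.84 and 1.16 TPM. Both were below the host in every library. USP46-AS1, the nearest row before DANCR at 50895 bp, had 1.96, 0.841 and 1.46 TPM, and ERVMER34-1 after it was listed at 0.

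TUG1, a lncRNA studied in retinal development and in cancer, lies on the plus strand of chromosome 22 from 30969211 to 30979395, and RefSeq classes the gene as protein coding. It had 33.9, 30.7 and 30.2 TPM, or 31.6 ± 1.97 TPM (SD, n = 3), above 68.3% of the genes that reached a mean of 1 TPM. Its coverage was 204, 184 and 163. MORC2, a chromatin ATPase gene on the opposite strand 436 bp away, had 16.5, 15.8 and 16.5 TPM, below TUG1 in every library. SMTN, at 101900 bp on the other side, had 12.4, 11.5 and 11.4 TPM.

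PVT1, the lncRNA beside the MYC oncogene and often amplified with it, spans 306721 bp of the plus strand of chromosome 8, from 127794533 to 128101253. It had 20.3, 22.0 and 23.1 TPM, or 21.8 ± 1.41 TPM (SD, n = 3), and a coverage of 127, 135 and 127. MYC, whose row ends 51581 bp before PVT1, had 96.5, 95.8 and 94.4 TPM, above PVT1 in every library. The row of PVT1 also holds 4 microRNA rows on its strand and TMEM75 on the other. MIR1204 had 6.96, 1.89 and 6.67 TPM, with a nearly level coverage of 13.7, 11.1 and 11.5, and MIR1206 had 2.97, 4.37 and 1.86 TPM. MIR1205 and MIR1207 were listed at 0 in at least 1 library, with at most 0.465 and 0.407 TPM. TMEM75 had 0.366, 0.609 and 0.173 TPM. By TPM these rows varied more between libraries than PVT1 itself, and all were below it. MIR1208, the next row after PVT1, was listed at 0 in all 3 libraries.

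HOTAIR is transcribed from the HOXC cluster, opposite to its genes, and is best known as a scaffold of Polycomb repressive complex PRC2 and the histone demethylase KDM1A. Its row occupies bases 53962308 to 53974956 of chromosome 12 (minus strand). It had 6.33, 6.01 and 7.53 TPM, or 6.63 ± 0.800 TPM (SD, n = 3), above 30.0% of the genes that reached a mean of 1 TPM and above 75.5% of all rows. Its coverage was 36.4, 33.8 and 37.9. HOTAIR overlaps HOXC11, a developmental transcription factor gene on the other strand, over 1831 bp, which is 14.5% of HOTAIR and 40.5% of HOXC11. The strand setting of the counting is not given in the sources used here, so reads of the shared bases cannot be told apart. HOXC11 had 20.0, 20.5 and 19.7 TPM, above HOTAIR in every library. HOXC12, at 3351 bp on one side, had 0.103 TPM in replicate 2 and was listed at 0 in the other 2, while HOXC-AS3, at 8994 bp on the other side, had 8.74, 8.79 and 9.61 TPM.

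Of the 9 HOXC genes, 8 reached 1 TPM in every library and 4 reached 10 TPM, with a median of 10.2 TPM. HOXC10 was highest at 65.8 ± 0.877 TPM (SD, n = 3), followed by HOXC13 at 25.6 ± 1.21 TPM and HOXC11 at 20.1 ± 0.374 TPM, so HOTAIR was below the cluster's most abundant genes. The 8 listed partners of HOTAIR all reached 1 TPM in every library and 6 reached 10 TPM, with a median of 37.8 TPM. Highest by TPM were KDM1A at 107 ± 4.75 TPM, the PRC2 methyltransferase EZH2 at 51.7 ± 1.76 TPM and the PRC2 subunit EED at 41.8 ± 1.68 TPM. For comparison, over all 39320 rows 13307 had at least 1 TPM in every library, 8137 had at least 10 TPM, and the median of the mean level was 0.0619 TPM.

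HOTTIP is transcribed from the 5′ tip of the HOXA cluster and is known for its binding to WDR5, a subunit of complexes that methylate histone H3. Its row lies on the plus strand of chromosome 7 from 27200421 to 27207259, 329 bp from HOXA13. It had 0.235, 0.214 and 0.280 TPM, or 0.243 ± 0.0337 TPM (SD, n = 3), and a coverage of 1.48, 1.31 and 1.54. HOXA13, the gene at the same end of the cluster, had 6.79, 6.15 and 5.80 TPM, above HOTTIP in every library, and EVX1-AS on the other side was listed at 0. Of the 11 HOXA genes, 9 reached 1 TPM in every library and 3 reached 10 TPM, with a median of 5.47 TPM. The highest by TPM were HOXA10 at 36.1 ± 1.29 TPM, HOXA11 at 33.98 ± 1.83 TPM and HOXA7 at 14.7 ± 0.959 TPM. By coverage HOXA11 was above HOXA10 in every library, at means of 203 and 157. The 5 listed partners of HOTTIP all reached 10 TPM in every library, with a median of 29.9 TPM. By TPM they were led by WDR5 at 124 ± 1.67 TPM and its partners DPY30 at 78.0 ± 7.22 TPM and ASH2L at 29.9 ± 0.921 TPM. By coverage DPY30 was the lowest of the 5, at a mean of 19.7 beside 328 for WDR5 and 122 for ASH2L. Its relative ratio of coverage to FPKM was 0.0427, 0.0422 and 0.0428. By TPM, HOTTIP was thus near 0 in libraries in which its listed partners all reached 10 TPM. Over all 39320 rows, 13307 had at least 1 TPM and 8137 at least 10 TPM in every library.

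UCA1, a lncRNA first found in bladder cancer, lies on the plus strand of chromosome 19 from 15828947 to 15836321. It had 0.460, 0.243 and 0.569 TPM, or 0.424 ± 0.166 TPM (SD, n = 3), with the largest coefficient of variation of the lncRNAs with a value, 39.2%. Its coverage was 2.88, 1.49 and 3.13. LINC01764, on the opposite strand over 90.3% of UCA1, was listed at 0 in all 3 libraries, as were the nearest rows, OR10H1 and LINC01835. HULC, on the plus strand of chromosome 6 from 8652209 to 8653846, was listed at 0 in all 3. It lies wholly within LOC100506207, which had 0.00674, 0 and 0.101 TPM, so the surrounding locus was also at or near 0. SLC35B3, the nearest row on one side at 216039 bp, had 8.0, 8.33 and 6.77 TPM, and LOC112267952 on the other was listed at 0.

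MALAT1 and NEAT1 lie in 1 region of the plus strand of chromosome 11 with other listed rows between them, NEAT1 from 65422798 to 65445540 and MALAT1 from 65497738 to 65506516. Both were listed at 0 in every library, but rows on the opposite strand at each of them were not. TALAM1, the antisense transcript of MALAT1, overlaps it over 7205 bp, which is 82.1% of MALAT1 and 88.7% of TALAM1. TALAM1 had 85.6, 85.5 and 87.7 TPM, or 86.3 ± 1.26 TPM (SD, n = 3), with a coverage of 537, 525 and 482. By TPM it was close to DANCR (86.9 TPM), while by coverage it was far above DANCR, at a mean of 515 against 64.0. Since the strand setting is not given in the sources used here, reads of the shared bases cannot be told apart between MALAT1 and TALAM1. The mascRNA row of 58 bp at the end of MALAT1 was listed at 0. Being listed at 0 was also seen in 17.9% of the 1167 rows that an opposite-strand row with at least 10 TPM in every library covers over 75% or more of their span.

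At NEAT1 the opposite-strand row LOC107984338 covers its first 583 bp, which is 2.56% of NEAT1 and 25.8% of that row. LOC107984338 had 173, 245 and 229 TPM, or 216 ± 37.8 TPM (SD, n = 3), lowest in replicate 1, and its coverage was 1086, 1506 and 1258. Its row was above NORAD in every library. MIR612, a microRNA row of 100 bp that lies inside NEAT1 near its 3′ end and on the same strand, had 7.73, 12.2 and 11.3 TPM and a coverage of 12.1, 18.8 and 15.5. A row inside NEAT1 thus had values above 0 in all 3 libraries, at a place that LOC107984338 does not reach, while the NEAT1 row itself was listed at 0. The relative ratio of coverage to FPKM of MIR612 was 0.25 in each library. Since the strand setting is not given in the sources used here, the strand of its reads is unknown. The genomic sequence of the MIR612 row is shown because it is a listed row inside NEAT1, on the same strand, with values above 0.
MIR612 row, chr11:65444458-65444557: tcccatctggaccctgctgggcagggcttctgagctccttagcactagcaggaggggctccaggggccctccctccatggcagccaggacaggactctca
The nearest rows outside were FRMD8, 9272 bp before NEAT1, with 28.1, 26.9 and 25.1 TPM, LOC101927789, 8848 bp after it, with 9.04, 9.0 and 5.53 TPM, and LOC105369346, 6830 bp before MALAT1, with 0.0781 TPM in replicate 3 and 0 in the others.

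**Figure D3:**
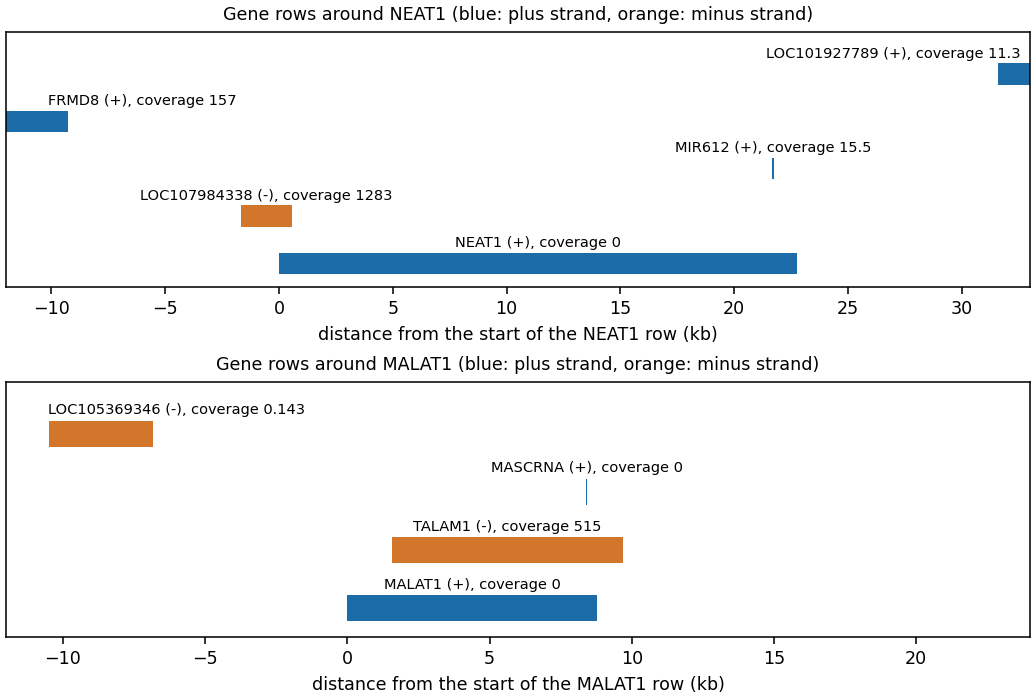
The lncRNA rows of NEAT1 and MALAT1 with the rows that overlap them and nearby rows within the windows drawn, by distance from the start of each lncRNA in kb, coloured by strand, with the mean coverage over 3 libraries beside each name. The NEAT1 and MALAT1 rows are at 0, while LOC107984338 and TALAM1 on the opposite strand have a mean coverage of 1283 and 515.

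Genes for the nuclear bodies of NEAT1 and MALAT1 and for the enzymes that process them were measured in every library. Over all 39320 rows, 13307 had at least 1 TPM and 8137 at least 10 TPM in every library. The 12 listed paraspeckle genes all reached 10 TPM in every library, with a median of 159 TPM and means from 31.7 to 758 TPM. PSPC1, the lowest of the 12 by TPM and by coverage, is named after its values were seen. Its relative ratio of coverage to FPKM was 0.0831, 0.0947 and 0.0868. Among the 3 highest were HNRNPK at 758 ± 13.9 TPM (SD, n = 3) and NONO at 442 ± 9.24 TPM, RNA-binding proteins of which NONO is a core protein of the paraspeckle. All 8 nuclear speckle genes passed the same limit, with a median of 193 TPM. By TPM they were led by the splicing factors SRSF2 at 335 ± 17.7 TPM, RNPS1 at 261 ± 15.5 TPM and U2AF2 at 234 ± 4.88 TPM. The 9 genes for RNase P, which cuts the 3′ ends described above, and for RNase Z all reached 1 TPM in every library. Of these, 8 reached 10 TPM in every library, and the median of the 9 was 26.2 TPM. POP5 was highest at 77.1 ± 6.10 TPM, then ELAC2 at 70.9 ± 3.06 TPM and RPP25 at 56.7 ± 3.73 TPM.

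**Figure D4:**
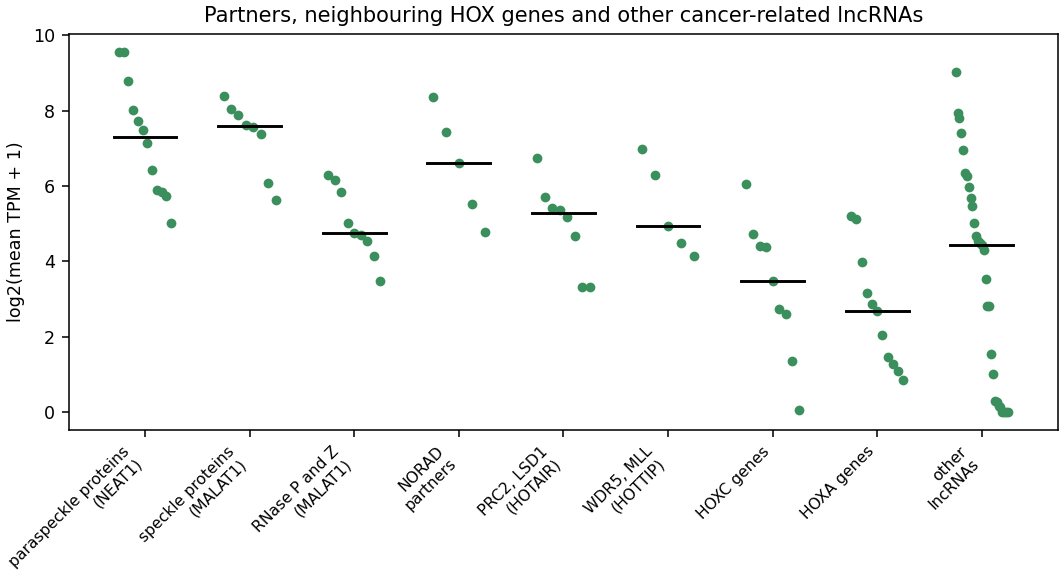
Log2(mean TPM + 1) over 3 libraries of each gene on the lists of partners, HOX genes and other lncRNAs, with 1 column of points per list and a line at its median. The paraspeckle list has a median of 159 TPM and the HOXA genes a median of 5.47 TPM.

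By mean TPM the order was NORAD, DANCR, TUG1, PVT1, HOTAIR, UCA1 and HOTTIP. Each of the 6 neighbouring pairs was compared within each library by the difference of log2(TPM + 1). NORAD exceeded DANCR by 0.60 ± 0.13 (SD, n = 3), DANCR exceeded TUG1 by 1.43 ± 0.12, and TUG1 exceeded PVT1 by 0.52 ± 0.17. PVT1 exceeded HOTAIR by 1.58 ± 0.12, HOTAIR exceeded UCA1 by 2.42 ± 0.09, and UCA1 exceeded HOTTIP by 0.19 ± 0.14. The order held in 3 of 3 libraries for every pair, and the ranges over libraries overlapped only for UCA1 and HOTTIP. The pairs and their direction were taken from the mean levels of these same libraries, so a positive mean step was largely set by that choice. Flipping the signs of the 3 differences, as a two-sided exact permutation test, gave p = 0.25 for each pair, also after Benjamini-Hochberg adjustment over the 6 pairs, which is the smallest value that 3 libraries allow, so no pair could pass a threshold of 0.05. By coverage, the step from DANCR to TUG1 turned to -1.50, and DANCR stood below TUG1 and PVT1.

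A range above 1 on the log2(TPM + 1) scale between the lowest and the highest library was found in 0.273% of the 8419 genes with means from 10 TPM upwards and in 0 of the 4 lncRNAs at such levels, a count that this share would also give. UCA1 and HOTTIP, below 1 TPM, could not reach such a range on this scale. Among genes with a mean within 1.5-fold of its own, the range of NORAD (0.177) was larger than that of 80.7% of 1022 genes, and that of HOTAIR (0.283) was larger than that of 79.7% of 2260 genes. The range of DANCR (0.0786) exceeded that of 34.4% of 1489 genes and that of HOTTIP (0.0766) exceeded that of 12.8% of 1788 genes. TUG1, PVT1 and UCA1 lay between these, at 62.9%, 66.5% and 74.4% of their like genes. NORAD and TUG1 were highest in replicate 1, while DANCR, PVT1, HOTAIR, UCA1 and HOTTIP were highest in replicate 3.

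The direction of these differences was set beside transcript length, a comparison chosen after the values were seen. Canonical transcripts of GENCODE v44 were matched to 8062 of the 8419 genes, which is 95.8%. The 8057 of them with values above 0 in every library were put in 5 length classes of about equal gene number. The median log2 ratio of replicate 1 to replicate 3 was -0.02 in the class with the shortest transcripts (median length 1090 nt). It was 0.05, 0.08, 0.11 and 0.15 in the following classes (median lengths 2046, 3009, 4318 and 6909.5 nt). The same ratio was 0.18 for NORAD (5401 nt) and 0.16 for TUG1 (7474 nt), both above 0 as were the medians of the longer classes. It was -0.08 for DANCR (3959 nt) and -0.19 for PVT1 (2444 nt), both below the lower quartile of the class of their canonical length (0.05 and -0.02). RefSeq lists 3 transcripts for DANCR and 51 for PVT1, so the canonical length need not be that of the RNA measured. The part of transcript length in the differences between libraries was not tested.

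**Figure D5:**
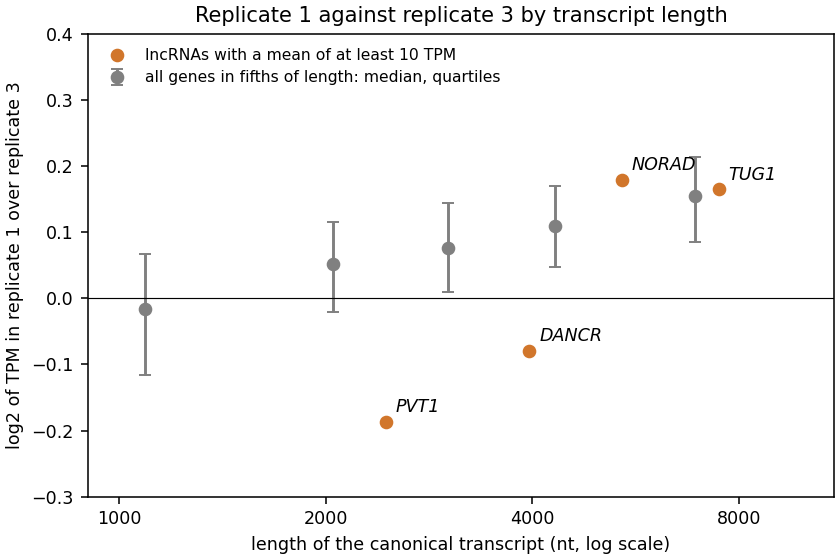
Log2 ratio of TPM in replicate 1 to replicate 3 against canonical transcript length in nt on a log axis. Grey points give the median and quartiles of genes whose mean reached 10 TPM, in 5 length classes of about equal gene number. Orange points are the 4 lncRNAs whose mean reached 10 TPM. The medians go from -0.02 to 0.15, with NORAD at 0.18, TUG1 at 0.16, DANCR at -0.08 and PVT1 at -0.19.

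For each lncRNA with at least 1 TPM in every library, the genes with the most similar levels were found by the Euclidean distance of log2(TPM + 1) over the 3 libraries. NORAD was nearest to TMPO, a nuclear lamina protein gene, and SLC38A2, an amino acid transporter gene, at distances of 0.03 and 0.03. DANCR was nearest to TALAM1, at 0.03. TUG1 was nearest to INTS7 and NR2F2, at 0.03 and 0.04, PVT1 to TEN1 and TXNL4B, at 0.03 and 0.04, and HOTAIR to C19orf44 and TUBD1, at 0.06 and 0.07. With 39320 rows and 3 libraries of 1 condition, such a distance describes a like level and no more.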

How the data were processed

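The 10 lncRNAs and the gene lists were chosen with earlier results of these data known. Per the labels, polyadenylated RNA of 3 libraries was sequenced as 150 bp paired-end reads. The submitters' processing notes name FastQC 0.11.8, Trim Galore 0.6.2, STAR 2.6.1a, StringTie and GRCh38, and the annotation, the strand setting and the role of StringTie are not given in the sources used here. The authors deposited 1 table per library with the coverage signal (mean depth), the FPKM and the TPM of each gene. Replicates were taken from the titles, and there is 1 group.

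Rows on the primary reference sequences that matched in gene name, strand, start and end between the tables numbered 39320. Deposited TPM values were taken without change, on a log2(TPM + 1) scale for differences. Neighbouring pairs were tested by flipping the signs of the differences within libraries (exact permutation, two-sided) with Benjamini-Hochberg adjustment. The range calculation was tested on simulated data. The genes named were the 10 lncRNAs, the genes of the hepatocyte list, the 3 highest genes of each other list and those listed at 0. Overlapping and nearest rows and the 2 genes with the most similar levels were also named. Other genes are named as chosen after their values were seen. Some genes that this rule names are not reported here. RefSeq biotypes were found for 35017 rows. Lengths and motif counts used GENCODE 44. Alternatives left out each replicate in turn or used other limits and pseudocounts, FPKM or coverage in place of TPM, other scalings, and, added after seeing the data, the TPM that coverage gives. Tables were handled with pandas 2.3.3 and numpy 2.4.6 under Python 3.11.15, and figures were drawn with matplotlib 3.10.9.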

Additional observations from a re-analysis of the deposited data

How the results depend on the processing

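Of 36 alternative values of the steps between neighbouring lncRNAs, 35 kept their direction. Only coverage in place of TPM could turn a step. Every step had the same direction in all 3 libraries, and FPKM and a pseudocount of 0.1 keep the order within a library. The step from DANCR to TUG1 turned to -1.50 with coverage in place of TPM, and that from NORAD to DANCR went from 0.60 to 3.60; the cause was not tested. With each replicate left out the steps ranged from 0.53 to 0.66 for NORAD to DANCR, 1.38 to 1.50 for DANCR to TUG1, 0.42 to 0.59 for TUG1 to PVT1, 1.52 to 1.63 for PVT1 to HOTAIR, 2.39 to 2.47 for HOTAIR to UCA1 and 0.14 to 0.27 for UCA1 to HOTTIP. A pseudocount of 0.1 gave 3.73 for HOTAIR to UCA1 and 0.56 for UCA1 to HOTTIP, and FPKM in place of TPM gave 1.79 and 0.11. The share of genes below HOTAIR went from 30.0% to 48.6% with a limit of 0.1 TPM, 75.5% with no limit and 41.8% by coverage, and that below DANCR from 87.3% to 54.4% by coverage. Of 35 alternative values of these shares, 17 moved by more than the SD over libraries. The number of lncRNAs that reached the limit in every library was 7 at 0.1 TPM, 4 at 10 TPM and 5 under the other alternatives. Scaling without mitochondrially encoded genes raised every mean above 0 by 1.25-fold, and setting the mitochondrial tRNA gene TRNC to the level that its coverage gives raised it by 1.20-fold. No paired analysis was possible because the 3 libraries form 1 group. Depth is unknown, so levels below 1 TPM carry no counting interval.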

Other observations

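A further list of 30 lncRNAs with a known link to cancer was looked up in the same tables, and 29 had a row. Of these, 20 had at least 1 TPM and 17 at least 10 TPM in every library, and 8 were below 1 TPM in every library. Over all 39320 rows the same counts were 13307, 8137 and 25119. Among the rows that RefSeq classes as lncRNA, 6.26% had at least 1 TPM in every library. The median of the mean level on the list was 20.5 TPM, beside 0.0619 TPM over all rows. The highest by TPM were GAS5 at 521 ± 20.1 TPM (SD, n = 3), ZFAS1 at 243 ± 19.6 TPM and SNHG7 at 222 ± 9.70 TPM. All of them are hosts of small nucleolar RNAs and were above NORAD by TPM. By coverage SNHG7 was below NORAD in every library, at a mean of 517 against 792. MEG3, an imprinted lncRNA, and LINC00261, a lncRNA of endoderm and its derived tissues, were listed at 0 in all 3 libraries. Over all rows 16014 were listed at 0 in every library.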
